A study of Mus musculus with 8 samples.

Results

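The 7 genes described here encode RNA binding proteins of 2 families that act on pre-mRNA splicing in germ cells: *Rbmx*, *Rbmxl1* and *Rbmxl2* of the RBMX family, and *Khdrbs1*, *Khdrbs2*, *Khdrbs3* and *Qk* of the STAR family. They were chosen by name from the 40840 genes listed in counts of mRNAseq reads from whole mouse testes at P12 (12 days after birth), and all 7 passed the filter on low counts that 19104 genes passed. The testes came from 4 wild type and 4 *Tra2b-cPEko* mice on a C57/BL6 background, described as biologically independent, and the replicate letters A to D carry no stated litter or batch. The wild type mice were *Tra2bPE fl/+*, so they carried 1 floxed copy and no Cre. The *Tra2b-cPEko* mice were *Tra2b fl/-;Vasa-Cre*, in which the poison exon of *Tra2b* is deleted. *Vasa-Cre* acts only in germ cells, and the second allele is a deletion passed on by the father, so Sertoli, Leydig and other somatic cells of *Tra2b-cPEko* testes keep the exon on 1 copy, against 2 copies in wild type. Both germ and somatic cells therefore differ between the genotypes.

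RBMX (also called hnRNP G) is ubiquitous, is encoded on the X chromosome and binds the splicing regulator TRA2B. The X chromosome is silenced in male meiosis at pachytene, and *Rbmxl2* (hnRNP G-T), an autosomal copy without introns, is known to be expressed in meiotic and later germ cells and to be needed for spermatogenesis. *Rbmxl1* is another retrocopy. STAR proteins bind RNA through a KH domain: *Khdrbs1* encodes Sam68, which is widespread, *Khdrbs2* encodes SLM1, known mainly from brain, *Khdrbs3* encodes T-STAR, known from brain and testis, and *Qk* encodes Quaking, best known from glia. The comparison asked whether the amounts of these mRNAs differed after loss of the *Tra2b* poison exon from germ cells. Reads counted over whole genes do not show splicing.

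The RBMX genes are shown as sequence because their likeness bears on how far reads can be told apart. The first 120 coding bases on GRCm39 are given 5′ to 3′, with capitals for the bases that differ from *Rbmx*. The *Rbmx* stretch lies on chrX:56436728-56437035 (minus strand, in 2 exons), that of *Rbmxl1* on chr8:79233222-79233341 (minus strand) and that of *Rbmxl2* on chr7:106808717-106808836 (plus strand).
Rbmx: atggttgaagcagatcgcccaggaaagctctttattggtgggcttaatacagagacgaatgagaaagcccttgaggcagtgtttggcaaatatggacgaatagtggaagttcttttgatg
Rbmxl1: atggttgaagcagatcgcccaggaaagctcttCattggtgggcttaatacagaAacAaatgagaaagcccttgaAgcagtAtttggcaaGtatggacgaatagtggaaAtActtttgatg
Rbmxl2: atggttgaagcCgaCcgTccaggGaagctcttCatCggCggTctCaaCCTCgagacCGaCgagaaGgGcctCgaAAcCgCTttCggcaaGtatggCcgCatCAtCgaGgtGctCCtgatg

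*Rbmxl1* differs from *Rbmx* at 8 of these 120 bases and *Rbmxl2* at 35. Over the whole coding sequences, *Rbmx* and *Rbmxl1* were 90.9% identical in the aligned bases, *Rbmx* and *Rbmxl2* 68.3%, and *Rbmxl1* and *Rbmxl2* 67.6%. No stretch of 100 coding bases was identical between any pair of the 3 genes, nor between any pair of *Khdrbs1*, *Khdrbs2* and *Khdrbs3*, whose coding sequences were between 67.8% and 74.0% identical. *Rbmxl2* stands apart in composition, since G and C make up 73.3% of its coding bases against 49.0% to 55.0% in the other 6 members. Over the canonical transcript its GC content was 66.9%, higher than in 99.8% of the 17460 tested genes with a transcript sequence.

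On GRCm39, *Rbmx* (ENSMUSG00000031134) spans chrX:56422241-56438436 and *Rbmxl1* (ENSMUSG00000037070) chr8:79230291-79236108, both on the minus strand. *Rbmxl2* (ENSMUSG00000073894) is a single exon at chr7:106808652-106810123 on the plus strand. *Khdrbs1* (ENSMUSG00000028790) lies at chr4:129594392-129636173 on the minus strand, *Khdrbs2* (ENSMUSG00000026058) at chr1:32211766-32744703 on the plus strand and *Khdrbs3* (ENSMUSG00000022332) at chr15:68799654-68978990 on the plus strand. *Qk* (ENSMUSG00000062078, named *Qki* in the annotation) lies at chr17:10411459-10539275 on the minus strand. Stretches of at least 100 bases with at least 95% identity elsewhere in the genome covered 41.9% of the *Rbmxl1* transcript, 38.8% of that of *Khdrbs1* and 2.85% of that of *Qk*, so their counts are less certain, while *Rbmx*, *Rbmxl2*, *Khdrbs2* and *Khdrbs3* had none. *Rbmxl1* (608 bases with *Gm63811*, 166 with *Slc10a7*), *Khdrbs3* (469 bases with *Gm62138*) and *Qk* (457 bases with *1700110C19Rik*) share exon bases with genes on the opposite strand, and *Rbmx* shares 71 exon bases with the small RNA gene *Snord61* on its own strand. Whether the counting used the strand is not given in the sources used here, so reads in the bases shared between strands cannot be assigned with certainty, nor, under any setting, those shared with *Snord61*.

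Between 41998195 and 59101569 reads were counted on genes per wild type mouse, and between 36757386 and 49992767 per *Tra2b-cPEko* mouse. The members had between 53 counts (*Khdrbs2*) and 21544 counts (*Qk*) in a single library. Markers of undifferentiated and differentiating spermatogonia, of spermatocytes and of 5 somatic cell types were all detected: none of the 74 genes on these lists was at 0 in all 8 mice. Fewer cells of a type and less RNA per cell cannot be told apart in whole testes. *Tra2a*, the other Tra2 gene, was between 111 and 144 CPM (counts scaled to the TMM-adjusted library total) in wild type and between 65.1 and 73.2 CPM in *Tra2b-cPEko* mice (log2 fold change -0.89, edgeR adjusted p = 0.00231). *Tra2b* itself, counted over the whole gene, was between 156 and 176 CPM in wild type and between 190 and 209 CPM in *Tra2b-cPEko* mice (log2 fold change 0.27, edgeR adjusted p = 0.0552, DESeq2 adjusted p = 1.95e-04). Counts over the whole gene do not show the deletion.

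None of the 7 members passed the test between genotypes (edgeR's quasi-likelihood test, Benjamini-Hochberg adjusted p under 0.05), where 0.157% of the 19104 genes tested did (0.131% higher and 0.0262% lower in *Tra2b-cPEko*). DESeq2 also called 0 members, against 2.79% of its 18149 genes, and limma-voom called 0. At an unadjusted p under 0.05, 1 of the 7 members passed in edgeR, *Khdrbs3*, against 15.3% of all genes. The CPM of the genotypes overlapped for all 7 members, whereas 8.54% of all genes had no overlap. Their log2 fold changes (*Tra2b-cPEko* over wild type) lay between -0.27 and 0.02, with a median of -0.03 against 0.00 over all genes tested. Exact permutation tests of the single levels gave p between 0.143, for *Khdrbs3*, and 0.943, for *Rbmxl2*.

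**Figure D1:**
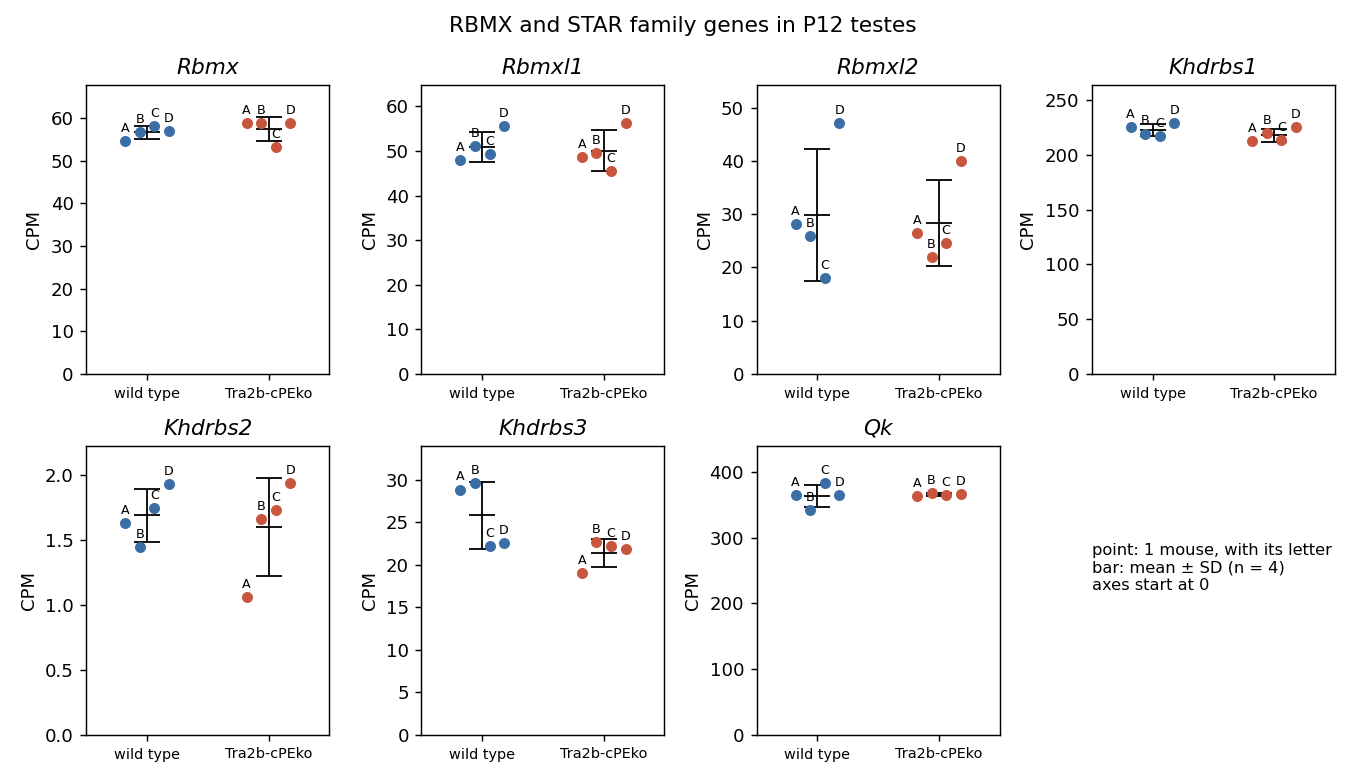
Level of each member in CPM (axes from 0) in 4 wild type (blue) and 4 *Tra2b-cPEko* (red) mice, each point a mouse with its letter and bars the mean ± SD. The genotypes overlap for every gene, *Rbmxl2* is widest, and *Khdrbs3* is near 29 CPM only in wild type A and B. Mouse D of each genotype is highest in *Rbmxl1*, *Rbmxl2*, *Khdrbs1* and *Khdrbs2*.

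*Rbmx* was at 54.6, 56.6, 58.1 and 56.9 CPM in wild type mice A to D, and at 58.7, 58.7, 53.1 and 58.9 CPM in *Tra2b-cPEko* mice A to D. The levels of the genotypes overlapped, and *Tra2b-cPEko* mouse C was below all other mice. The log2 fold change was 0.02 (SE 0.05, edgeR adjusted p = 0.887), with a 95% interval from -5.76% to 8.95%, so a change of the size seen in *Tra2a* lies outside it.

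*Rbmxl1* was at 47.9, 51.0, 49.3 and 55.6 CPM in wild type and at 48.6, 49.7, 45.6 and 56.4 CPM in *Tra2b-cPEko* mice. Mouse D was highest in both genotypes, which overlapped. The log2 fold change was -0.03 (SE 0.07, edgeR adjusted p = 0.883), with a 95% interval from -11.5% to 8.69%. Of the genes annotated where its copies lie, *Gm6526* on chromosome 14 has counts of its own, between 61 and 125 per library. *Gm7324* and the processed pseudogene *Gm17208* are annotated at the same place, and which of these genes holds the copy was not examined.

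*Rbmxl2* was at 28.2, 25.9, 18.1 and 47.2 CPM in wild type and at 26.5, 21.9, 24.6 and 40.0 CPM in *Tra2b-cPEko* mice. Mouse D was highest in both genotypes, wild type C was lowest, and the range in *Tra2b-cPEko* mice fell inside that of wild type mice. The highest mouse exceeded the lowest 2.61-fold in wild type and 1.83-fold in *Tra2b-cPEko*. The log2 fold change was -0.08 (SE 0.34, edgeR adjusted p = 0.933). Its 95% interval ran from -46.1% to 65.2%, so differences between genotypes within these bounds were not excluded. The SD within genotypes was 0.48 on the log2 scale, larger than in 95.3% of all genes tested, whose median was 0.12. By contrast, the SD was 0.06 for *Rbmx*, where 13.9% of genes had a smaller one, and 0.11 for *Rbmxl1*.

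The mice with the most *Rbmxl2* were not those with the highest pachytene markers. Wild type A and B had the highest summed level of the 10 pachytene markers (506 and 542 CPM, against 252 to 379 CPM in the other 6 mice), but the D mice, with 306 CPM in wild type and 351 CPM in *Tra2b-cPEko*, had the most *Rbmxl2*. The 5 peritubular myoid markers summed to their lowest level in mouse D of each genotype. In wild type it was 892 CPM, where the others had 952 to 1013 CPM. In *Tra2b-cPEko* it was 949 CPM, where the others had 1010 to 1153 CPM. The summed macrophage markers were also lowest in mouse D of each genotype (104 CPM in wild type and 125 CPM in *Tra2b-cPEko*). Those of endothelial cells were lowest in mouse D in wild type (158.5 CPM) but not in *Tra2b-cPEko*. The other 2 somatic lists went the other way, since in wild type the summed Leydig (438 CPM) and Sertoli markers (5918 CPM) were highest in mouse D. In *Tra2b-cPEko* D they were at 490.0 and 5906 CPM, below only *Tra2b-cPEko* B for Leydig (626.0 CPM) and *Tra2b-cPEko* A for Sertoli markers (6245 CPM). In the 175 genes with the highest GC content (at least 63.4%), the median log2 deviation from each gene's mean over the 8 mice was taken. It was 0.25 in wild type D and 0.19 in *Tra2b-cPEko* D, and between -0.13 and -0.01 in the other 6 mice. The lowest of these values was that of wild type C, the mouse with the least *Rbmxl2*. The wider set of 1746 GC-rich genes (at least 58.2%) did not single out the D mice. There wild type B was at 0.065, wild type D at 0.070 and *Tra2b-cPEko* D at 0.044, while *Rbmxl2* deviated by -0.10 in wild type B. Mouse D of each genotype was also highest in *Rbmxl1*, *Khdrbs1* and *Khdrbs2*, whose transcripts have a GC content of 48.3%, 44.6% and 42.9%. The median deviation of genes of like GC content was then subtracted, a step chosen after seeing the data. With 100 bins, the highest mouse exceeded the lowest 2.01-fold, against 2.61-fold before, and the SD within genotypes was 0.35 instead of 0.48. With 10 bins, these values were 2.39-fold and 0.44. The part of GC content or of somatic cell types in the spread of *Rbmxl2* was not tested.

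**Figure D2:**
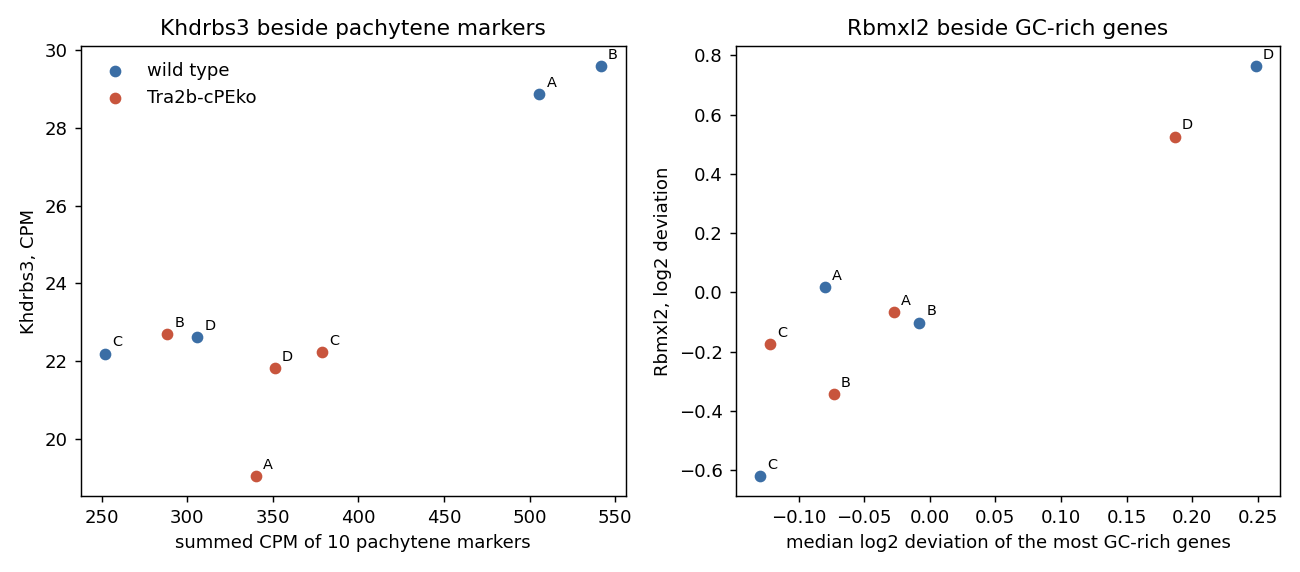
Left, *Khdrbs3* (CPM) against the summed CPM of 10 pachytene markers, and right, the log2 deviation of *Rbmxl2* from its mean over 8 mice against the median log2 deviation of the 175 most GC-rich genes, each point a mouse with its letter (blue, wild type and red, *Tra2b-cPEko*). Wild type A and B stand apart at 506 and 542 CPM of pachytene markers, and both D mice stand apart on the right.

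Per kilobase of the canonical transcript, *Rbmx* made up 44.7% ± 6.36 of the summed level of the 3 RBMX genes in wild type and 45.7% ± 4.25 in *Tra2b-cPEko* mice (SD, n = 4 each). The shares of *Rbmxl1* were 22.9% ± 2.04 and 22.7% ± 0.957, and those of *Rbmxl2* 32.4% ± 8.37 and 31.7% ± 5.09. The share of *Rbmxl2* ran from 23.1% in wild type C to 43.3% in wild type D, and from 26.5% in *Tra2b-cPEko* B to 38.7% in *Tra2b-cPEko* D. In wild type D, *Rbmxl2* was 1.19 times as abundant per length as *Rbmx*, and in the other 7 mice it was between 0.447 and 0.976 times as abundant. These shares and ratios depend on the length used, which for *Rbmx* is 2113 bases in the canonical transcript and 8859 over all annotated exons. Per kilobase of all annotated exons, *Rbmxl2* was above *Rbmx* in every mouse. The wild type means were then 20.2 CPM per kb for *Rbmxl2* and 6.38 for *Rbmx*, and those of *Tra2b-cPEko* mice 19.2 and 6.47.

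**Figure D3:**
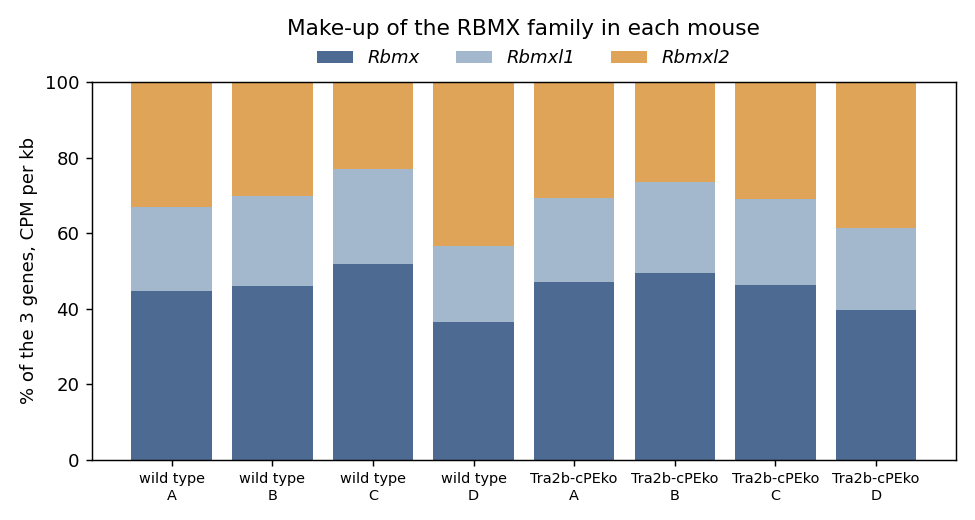
Share of *Rbmx*, *Rbmxl1* and *Rbmxl2* in their summed CPM per kilobase of canonical transcript (percent) in each of the 8 mice, as stacked bars. The share of *Rbmxl2* is highest in mouse D of each genotype, at 43.3% and 38.7%.

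*Khdrbs1* was at 225, 219, 217 and 229 CPM in wild type and at 213, 220.0, 213 and 225 CPM in *Tra2b-cPEko* mice. The 8 values lay within 1.08-fold of each other, with overlapping genotypes, and mouse D was highest in both. The log2 fold change was -0.03 (SE 0.04, edgeR adjusted p = 0.734), with a 95% interval from -7.82% to 3.75%.

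*Khdrbs2* was at 1.63, 1.44, 1.75 and 1.93 CPM in wild type and at 1.06, 1.66, 1.73 and 1.93 CPM in *Tra2b-cPEko* mice. *Tra2b-cPEko* A was lowest, the rest overlapped, and mouse D was highest in both genotypes. Behind these levels stood 53 to 114 counts per library, and the 95% interval of the change ran from -28.8% to 23.8% (log2 fold change -0.09, SE 0.18, edgeR adjusted p = 0.855).

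*Khdrbs3* was at 28.9, 29.6, 22.2 and 22.6 CPM in wild type and at 19.0, 22.7, 22.2 and 21.8 CPM in *Tra2b-cPEko* mice. Wild type A and B were above all other mice, wild type C and D lay inside the range of the *Tra2b-cPEko* mice, and *Tra2b-cPEko* A was lowest. The mean was 25.8 ± 3.96 CPM for wild type and 21.5 ± 1.64 CPM for *Tra2b-cPEko* (SD, n = 4 each). The log2 fold change was -0.27 (SE 0.10, edgeR unadjusted p = 0.0228 and adjusted p = 0.257), with a 95% interval from -28.8% to -3.03% that is not corrected for the number of genes tested. DESeq2 gave an adjusted p of 0.162, and the exact permutation test of its level (two-sided, log2 CPM) gave p = 0.143, where 4 against 4 mice can reach 0.0286. Without wild type A the log2 fold change was -0.21, and without wild type B it was -0.19.

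Wild type A and B, the 2 mice with *Khdrbs3* near 29 CPM, also stood apart in germ cell markers. They had the highest summed pachytene markers, the highest summed leptotene and zygotene markers (1905 and 1673 CPM, against 1409 to 1581 CPM in the other 6 mice) and the lowest summed markers of undifferentiated spermatogonia (234 and 232 CPM, against 252 to 282 CPM). In the other 6 mice *Khdrbs3* did not follow the pachytene markers: wild type C and *Tra2b-cPEko* C, with the lowest and highest of these summed levels (252 and 379 CPM), both had 22.2 CPM of *Khdrbs3*, and *Tra2b-cPEko* A, with 340 CPM of the markers, had the least, 19.0 CPM. Of the 10 pachytene markers, 8 passed the filter on low counts and none was at 0 in all mice, with *Pgk2* and *Pou5f2* below the filter. The summed level lay between 252 and 542 CPM in wild type and between 288 and 379 CPM in *Tra2b-cPEko* mice. In either direction, 0 of the 8 tested markers passed the test (edgeR, unadjusted p under 0.05 for 0 of them, DESeq2 0). Of these 8 markers, 2 had log2 fold changes above 0 and 6 below, with a median of -0.31. The largest log2 fold change in size among them was in *Piwil1*, a gene of the piRNA pathway, with 28.8 ± 19.1 CPM in wild type against 11.3 ± 2.19 CPM in *Tra2b-cPEko* (SD, n = 4 each, log2 fold change -1.33, edgeR adjusted p = 0.332). The part of cell makeup in the difference in *Khdrbs3* was not tested.

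*Qk* was at 365, 342, 383 and 365 CPM in wild type and at 363, 368, 365 and 366 CPM in *Tra2b-cPEko* mice. All 4 *Tra2b-cPEko* mice lay within 1.01-fold of each other, inside the range of wild type mice. The log2 fold change was 0.01 (SE 0.04, edgeR adjusted p = 0.947), with a 95% interval from -5.61% to 7.15%.

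**Figure D4:**
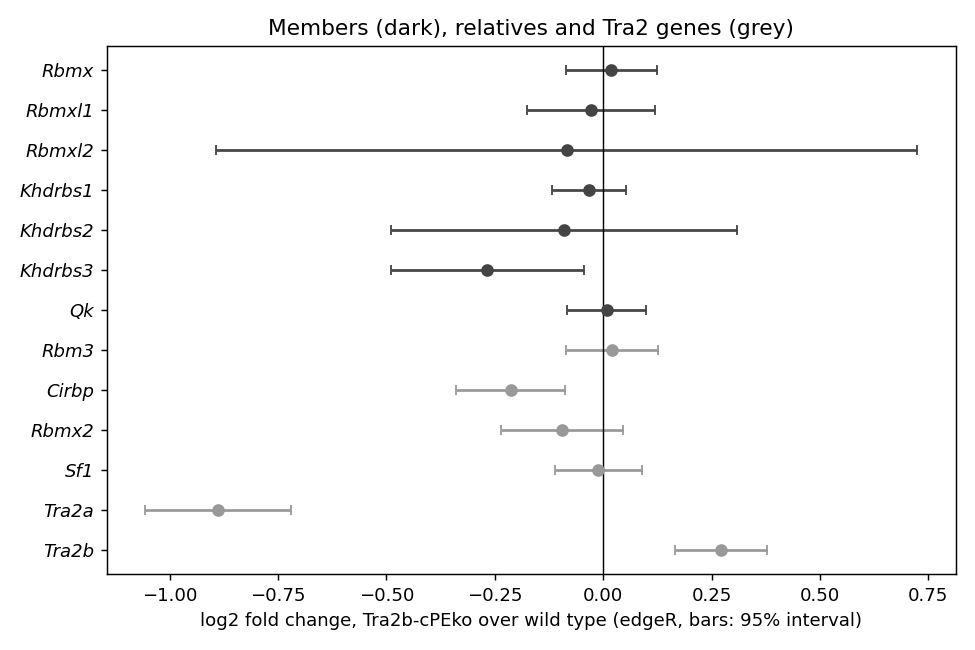
Log2 fold change of *Tra2b-cPEko* over wild type with its 95% interval from edgeR for the 7 members (dark) and for 4 relatives and the Tra2 genes (grey). The interval of *Rbmxl2* is the widest, from -0.89 to 0.72, and that of *Khdrbs3* runs from -0.49 to -0.04.

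Compared per kilobase of canonical transcript in wild type mice, *Khdrbs1* was the most abundant member at 58.5 ± 1.42 CPM per kb (SD, n = 4), followed by *Qk* at 38.2 ± 1.76, *Rbmx* at 26.8 ± 0.683, *Rbmxl2* at 20.2 ± 8.39, *Rbmxl1* at 13.8 ± 0.905, *Khdrbs3* at 10.7 ± 1.63 and *Khdrbs2* at 0.73 ± 0.0888. *Rbmxl2* overlapped both of its neighbours in this order, *Rbmx* above and *Rbmxl1* below, and the other neighbours did not overlap. The order of the means and the overlaps were alike in *Tra2b-cPEko* mice, where the levels were 57.2, 38.4, 27.1, 19.2, 13.5, 8.85 and 0.692 CPM per kb. Which length is used matters: divided by the length of all annotated exons, the order in wild type was *Qk*, *Rbmxl2*, *Khdrbs1*, *Rbmxl1*, *Rbmx*, *Khdrbs3* and *Khdrbs2*. *Khdrbs3* and *Khdrbs2* were the least abundant by either length. Among the KHDRBS genes, *Khdrbs1* made up 83.7% ± 1.92 in wild type and 85.7% ± 0.944 in *Tra2b-cPEko* mice (SD, n = 4 each), *Khdrbs3* 15.2% ± 2.06 and 13.2% ± 0.775, and *Khdrbs2* 1.05% ± 0.137 and 1.03% ± 0.219.

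**Figure D5:**
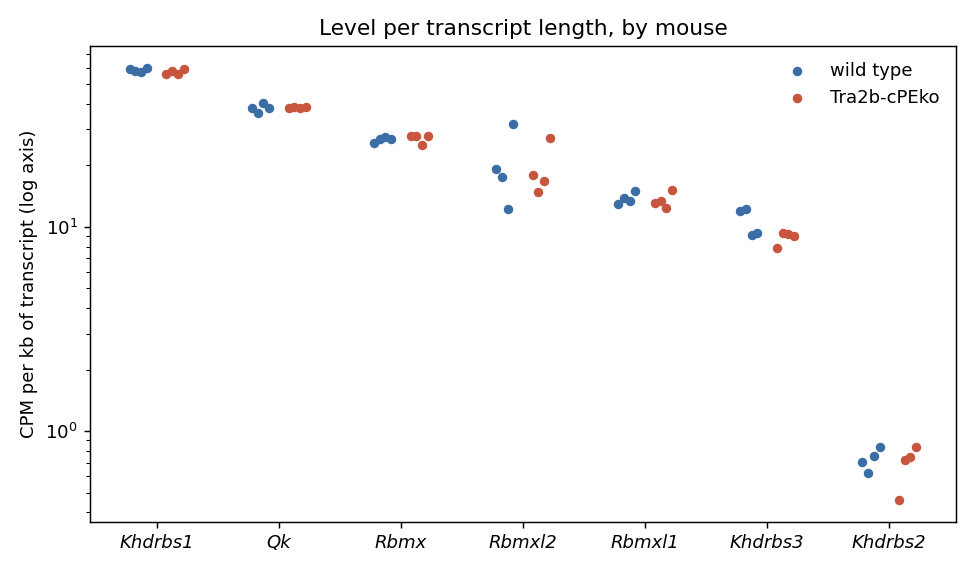
Level of each member in CPM per kilobase of canonical transcript (log axis) in every mouse (blue, wild type and red, *Tra2b-cPEko*), ordered by the wild type mean. *Khdrbs1* is highest at 58.5 and *Khdrbs2* lowest at 0.73 CPM per kb, and *Rbmxl2* overlaps *Rbmx* and *Rbmxl1*.

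A shift between paralogues was tested as the log2 ratio of counts within each library, which does not depend on scaling between libraries. The difference between genotypes (*Tra2b-cPEko* minus wild type) was -0.05 (SE 0.34) for *Rbmxl2* to *Rbmx*, -0.05 (SE 0.06) for *Rbmxl1* to *Rbmx*, -0.07 (SE 0.19) for *Khdrbs2* to *Khdrbs1* and -0.23 (SE 0.12) for *Khdrbs3* to *Khdrbs1*. Two-sided exact permutation tests gave p = 0.886, 0.486, 0.857 and 0.200, which became 0.886, 0.886, 0.886 and 0.800 after adjustment over the 4 ratios, and the genotypes overlapped in each. The ratio of *Khdrbs3* to *Khdrbs1* per length was 0.202 and 0.212 in wild type A and B, and between 0.141 and 0.164 in the other 6 mice.

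The other members of the wider families were also without a call in edgeR. *Cirbp*, a cold-induced RNA binding protein, was at 192, 210.3, 174 and 207 CPM in wild type and at 176, 163, 165 and 171 CPM in *Tra2b-cPEko* mice. *Tra2b-cPEko* A overlapped the lowest wild type mouse (log2 fold change -0.21, edgeR adjusted p = 0.136, DESeq2 adjusted p = 0.0361). *Cirbp* shares 1010 exon bases with *Gm67261* and 331 with *Gm67271* on the opposite strand. *Rbm3*, the closest cold-induced relative, had a log2 fold change of 0.02 (edgeR adjusted p = 0.876), *Rbmx2*, which encodes a spliceosomal protein, one of -0.10 (edgeR adjusted p = 0.508) and *Sf1*, which encodes the STAR-related branch point binding protein, one of -0.01 (edgeR adjusted p = 0.934). *Rbmy*, the RBMX gene of the Y chromosome, had between 0 and 5 counts per library and was not tested. It shares 72 exon bases with *Rbmyf2*, and the near-identical copies that the mouse Y chromosome is known to hold make its counts uncertain.

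Genes whose splicing the members are known to regulate were examined at the level of whole genes. Of 8 targets of RBMX and RBMXL2, 0 passed the test in either direction (edgeR, 0 at an unadjusted p under 0.05, DESeq2 0), 5 had log2 fold changes above 0 and 3 below, and the median was 0.03. The lowest log2 fold change on this list was that of *Meioc*, needed for meiotic prophase (-0.21, edgeR unadjusted p = 0.0751, adjusted p = 0.380). It had 172 ± 27.3 CPM in wild type against 149 ± 9.15 CPM in *Tra2b-cPEko* mice (SD, n = 4 each). Of 7 STAR targets, 0 passed (edgeR, 0 at an unadjusted p under 0.05, DESeq2 0), with a median of -0.04. Of 4 targets of Quaking, 0 passed (edgeR, 0 at an unadjusted p under 0.05, DESeq2 0), with a median of 0.03. Of 5 genes for enzymes that modify STAR proteins, 0 passed (DESeq2 0), with a median of -0.05. *Prmt1*, the arginine methyltransferase of Sam68, passed an unadjusted threshold in edgeR (log2 fold change -0.10, unadjusted p = 0.0245, adjusted p = 0.261). It was 1 of 5 on this list under 0.05 unadjusted, where 15.3% of all genes were. Over all genes tested the median was 0.00.

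Among the cell type markers, 1 gene passed the test: *Sohlh1*, a transcription factor of differentiating spermatogonia, was lower in *Tra2b-cPEko* mice (37.4 ± 1.03 against 47.5 ± 3.02 CPM, SD, n = 4 each, edgeR adjusted p = 0.0341). The other 6 markers on its list also had log2 fold changes below 0, with a list median of -0.11. Of the 7 on this list, 2 had an unadjusted p under 0.05 in edgeR, and DESeq2 called 1. No gene passed in edgeR among the 10 markers of undifferentiated spermatogonia (median 0.02), the 12 of leptotene and zygotene spermatocytes (-0.09), the 10 of Sertoli cells (-0.04), the 6 of Leydig cells (0.43), the 5 of peritubular myoid cells (0.09), the 7 of endothelial cells (0.05) or the 7 of macrophages (0.23). At an unadjusted p under 0.05 these lists had 0, 0, 1, 1, 2, 0 and 4 genes, where 15.3% of all genes passed. DESeq2 called 0, 0, 0, 1, 0, 0 and 1, against 2.79% of its genes. All 7 macrophage markers had log2 fold changes above 0, as had all 7 endothelial, all 5 myoid and 5 of the 6 Leydig markers. Of the 10 Sertoli markers, 3 were above 0, and of all genes tested 49.7% were. The summed level of the macrophage markers was between 104 and 124 CPM in wild type and between 125 and 153 CPM in *Tra2b-cPEko* mice.

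The genes whose level ran most like each member over the 8 mice were sought among the 10850 genes that averaged 10 CPM or more, by Pearson's r of log2 CPM. These are the 3 highest of many values and share libraries and depth, so they are a description. Likeness in base composition was not examined. *Rbmx* was most like *Myo19* (r = 0.96, Spearman's rho 0.93), *Scube3* and *Etnk2*, and *Rbmxl1* was most like *Eci1* (r = 0.99, rho 0.90), *Atoh8* and *Hnrnpf*. *Rbmxl2* was most like *Gm1673* (r = 0.98, rho 0.93), *Hnrnpl* and *2510022D24Rik*. *Khdrbs1* was most like *Eri1* (r = 0.97, rho 0.98), *Slc25a3* and *Lsm1*, *Khdrbs2* most like *Usp12* (r = 0.96, rho 0.98), *Megf9* and *Arhgap11a*, *Khdrbs3* most like *Sarnp* (r = 0.98, rho 0.86), *Polb* and *Triap1*, and *Qk* most like *Fem1b* (r = 0.99, rho 0.98), *Zfp551* and *Rictor*. Between members, the highest value over the 8 mice was r = 0.75 (rho 0.67), between *Rbmxl1* and *Khdrbs1*, and *Rbmx* and *Rbmxl2* had r = 0.03 (rho 0.05).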

How the data were processed

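Stranded mRNA libraries of 8 testes were sequenced, and the authors deposited raw counts of reads per gene, 1 table per mouse, with summary lines in the form of htseq-count that were left out of all tests. The submitters' processing notes name HISAT2 2.2.1 and HTSeq 2.0.2 and the build GRCm39, while the study's methods name Salmon. Reads on genes were 67.6% to 69.0% of each table in wild type and 66.4% to 67.3% in *Tra2b-cPEko* mice, without overlap, and no library was a copy of another (chi-square per degree of freedom within genotypes 6.24 to 19.1). Whether mice came from separate litters is not given. The p-values set the difference between genotypes against the spread between these mice and take no account of litter. For that spread, edgeR also drew on all genes tested.

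Genotypes were compared with edgeR 4.0.16 under R 4.3.3 (filterByExpr with a least count of 10 and least total of 15, TMM factors, robust glmQLFit and glmQLFTest, Benjamini-Hochberg over 19104 genes, threshold 0.05). Single genes had exact permutation tests over 70 arrangements of log2 CPM (prior count 2), and ratios used counts plus 2. DESeq2 1.42.0, limma-voom (limma 3.58.1) and other settings were alternatives. GENCODE vM39 on GRCm39 gave positions and lengths, and BLAST+ 2.17.0 searched copies. Figures were drawn with matplotlib 3.10.9. The edgeR fit was also run on simulated counts that had the same dispersion (spread between mice) for every gene. That run does not show how the fit performs for members of unlike spread, such as *Rbmxl2*. The genes named are the 7 members, the Tra2 genes, the wider family, the genes past the threshold on the fixed lists, and the 3 most alike genes of each member. Other list genes were named after their values were seen. The members and lists were chosen with earlier results of these data known. A gene on each of the lists of STAR and Quaking targets is not reported and was left out of these lists.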

Additional observations from a re-analysis of the deposited data

Results flagged for a closer look

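In 1 of 22 groups of 4 values examined (7 levels and 4 ratios in each genotype), a mouse lay apart from the others by Dixon's ratio at 95%, where chance gives about 1 in 20 groups. *Rbmx* was at 53.1 CPM in *Tra2b-cPEko* C, against 58.7 to 58.9 CPM in the other 3 *Tra2b-cPEko* mice, a gap of 0.972 of the whole range. The wild type mice, at 54.6 to 58.1 CPM, lay between these values.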

How the results depend on the processing

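The count of members called was 0 in edgeR and in all 16 alternatives, and no fold change or single level passed its threshold in any alternative run. The ratios did not pass with a pseudocount of 0.5, and without single mice or with pairs they could not, since the smallest exact p is then 0.0571 or 0.125. Without single mice, the log2 fold change ran from -0.33 to -0.19 for *Khdrbs3* and from -0.30 to 0.23 for *Rbmxl2*, and *Rbmxl1*, *Rbmxl2*, *Khdrbs2* and *Qk*, all uncalled, changed sign in some of these fits. The adjusted p of *Khdrbs3* lay between 0.104 and 0.485 over its alternatives, and its unadjusted p was under 0.05 in 13 of 16. Over all genes, 30 were called in edgeR, 58 with upper-quartile factors, 123 without the filter on low counts, 14 with a mean count of at least 50, 507 with DESeq2, 11 with limma-voom and 12 without robust estimation. The count ranged from 3 (without *Tra2b-cPEko* D) to 84 (without wild type C), was 76 without *Tra2b-cPEko* B, and was 9 or 10 without wild type A or B or *Tra2b-cPEko* A or C. The cause was not tested. With the replicate letter as a block, 67 genes and 0 members were called, the log2 fold change of *Khdrbs3* was -0.26 and that of *Rbmxl2* -0.03, and the difference in the ratio of *Khdrbs3* to *Khdrbs1* was -0.23 (exact p = 0.375, where 4 pairs can reach no less than 0.125). Same-letter mice deviated with correlations between -0.14 and 0.12 over genes, so the letters were not taken as pairs. A correction for GC content in 10 or 100 bins, chosen after seeing the data, changed no call of a single member level. Depth limits *Khdrbs2*, with 53 to 114 counts.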
